A study of Mus musculus with 10 samples.

Results

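The p53 pathway genes described here are Trp53 and 32 of its known targets, 33 genes in all, found by name among the 35976 genes of the count table. RNA was measured in mouse morulae, the compacting embryo shortly before the blastocyst, of the strain combination BDF1 x PWK, which every library shares. The single-embryo set held 1 female embryo per library, 3 labelled wild type (replicates 1, 2 and 3) and 3 labelled Jarid2 knockout (replicates 1, 3 and 4). The pooled set held about 20 embryos per library, 2 labelled control (replicates 1 and 2) and 2 labelled Jarid2 knockout (replicates 1 and 2). JARID2 is a DNA-binding cofactor of the Polycomb complex PRC2, which trimethylates lysine on histone H3 at repressed genes. The labels do not give the knockout allele, how it was made, the genotype behind the word control, the sex of the pooled embryos or whether pools came from separate litters. Tests in the pools therefore see only how far these particular pools vary, and that variation may be technical.

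p53 is a transcription factor that is held at low levels by the ubiquitin ligase MDM2 and is stabilised after DNA damage, ribosomal stress and other insults. It binds a response element near its target genes and raises their transcription. Its targets include brakes on the cell cycle, genes of cell death, repair genes, metabolic genes and genes such as Mdm2 that limit p53 itself, so target transcripts are often read as a measure of its activity, whereas Trp53 RNA itself need not change.

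Depth ran from 14830332 to 17534188 counts in wild-type single embryos and from 18015186 to 18696312 in knockouts. Every knockout single embryo was thus sequenced deeper than every wild type. Pools had 41003216 to 49861963 counts. All 12 morula markers of a fixed list were detected, with summed levels of 4567 to 6449 CPM (each library's counts divided by its total and put on 1 scale) in all 10 libraries. The cumulus cell genes Has2, Ptx3, Inhba and Fshr were at 0 counts in every library, and the 10 cumulus and granulosa markers summed to at most 2.19 CPM. Jarid2 was lower in every knockout library than in every control library of its set, with 580.3, 686.0 and 775.6 CPM in wild-type single embryos against 156.1, 318.7 and 61.3 CPM in knockouts (log2 change -1.92, SE 0.43, edgeR adjusted p = 0.0342). The adjusted p was 0.0735 to 0.127 with wild-type embryo 1 or 3 or knockout embryo 1 or 4 left out. In the pools it had 442.5 and 496.3 CPM in controls and 180.6 and 157.9 CPM in knockouts (log2 change -1.55, SE 0.18, edgeR adjusted p = 0.0794). In these bulk libraries, fewer cells of a type and less RNA per cell cannot be told apart.

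Promoters were available from RefSeq (GRCm38.p6) for 25 of the 33 genes, each as the 250 bases before and 50 after a start site. The p53 response element consists of a pair of adjacent 10-base copies and reads the same on both strands. A match needed 17 or more of its 20 letters, among them the fixed C and G of each copy, and no spacer. Such an element was found in the promoters of 10 of the 25 genes, against 1.63% of all 27025 genes with promoters of the same length. The 10 were Aen, Bbc3, Ccng1, Cdkn1a, Ckap2, Gtse1, Rps27l, Sesn1, Tigar and Trp53. With 19 matched letters it was found in 4 of the 25 (Ccng1, Cdkn1a, Gtse1 and Rps27l), against 0.0814% of all genes. A single perfect copy of 10 bases, which can overlap the longer element, was present in 13 of the 25, against 9.55% of all genes. The minimum of 17 was chosen after the matches were seen, and a match is a run of letters, not a shown binding site. The genes were listed as known p53 targets, so a share above that of all genes can follow from the choice of list alone. The sequences below are those of the 4 closest matches and of Aen, Bbc3 and Trp53, whose values follow. Each is 5′ to 3′ on the gene's strand, with the 20 letters of the element in capitals and 5 bases on either side.
Cdkn1a: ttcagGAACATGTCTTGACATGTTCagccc
Ccng1: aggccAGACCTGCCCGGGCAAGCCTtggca
Gtse1: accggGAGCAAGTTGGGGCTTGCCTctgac
Rps27l: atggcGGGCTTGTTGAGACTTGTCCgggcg
Aen: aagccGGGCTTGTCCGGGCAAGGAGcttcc
Bbc3: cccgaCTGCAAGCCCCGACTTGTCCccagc
Trp53: cggaaGGACTTGCCCTTACTTGTTAtggcg

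These runs lie at chr17:29090923-29090952 (plus strand) for Cdkn1a, chr11:40755457-40755486 (minus strand) for Ccng1, chr15:85859940-85859969 (plus strand) for Gtse1 and chr9:66946291-66946320 (plus strand) for Rps27l. Those of Aen, Bbc3 and Trp53 lie on the plus strand at chr7:78895932-78895961, chr7:16309481-16309510 and chr11:69580279-69580308. Counted from the start site of the promoter that holds it, the first base of the element is at -51 in Cdkn1a, -195 in Ccng1, -117 in Rps27l and -1 in Gtse1. A gene can have several start sites. The runs of Gtse1, Rps27l, Bbc3 and Aen lie inside their genes, which begin at 85859691, 66944624, 16308398 and 78895927. At another start site, the best match had 14 letters in Gtse1 and 13 in each of Rps27l and Cdkn1a. In Bbc3 the best matches at other start sites had 13 and 12 letters.

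No gene of the 33 passed 5% after adjustment over all genes by edgeR's quasi-likelihood test in either set. Of all genes tested, 4.37% passed in single embryos and 0% in pools. Cdkn1a and Pmaip1 were higher in every knockout library than in every control library of their set. These are 2 of the 32 members tested in both sets, against 2.42% of all genes. The median log2 change was 0.41 over the 32 genes tested in single embryos, against -0.03 over all 13830 genes tested, and ran from 0.17 without wild-type embryo 3 to 0.70 without wild-type embryo 2. In the pools it was 0.44 over the 33 genes, against 0.01 over all 16259. The 33 genes were chosen with earlier results of these data known. Contrasts between them and all genes, here and below, are therefore not independent of these data. Trp53 RNA itself differed by a log2 change of 0.54 (SE 0.28) in single embryos and 0.01 (SE 0.20) in pools.

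The same genes can be read library by library, as the median over the 33 genes of log2(CPM + 1) minus the mean of the 10 libraries. Wild-type single embryos 1 and 3 lay at -0.44 and -0.36, and wild-type embryo 2 at 0.48, above every other library. Knockout single embryos 1, 3 and 4 lay at 0.27, 0.24 and 0.23. Control pools lay at -0.31 and -0.27, and knockout pools at 0.12 and 0.26. All 5 knockout libraries were thus above 4 of the 5 control libraries, and wild-type embryo 2 stood apart from the others of its group. The same median over all genes tested ranged from -0.14 to 0.13 among the libraries and was highest, at 0.13, in wild-type embryo 2. With the median of all genes subtracted, wild-type embryo 2 was at 0.35 and knockout embryo 1 at 0.36, so it was then no longer the highest.

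**Figure D1:**
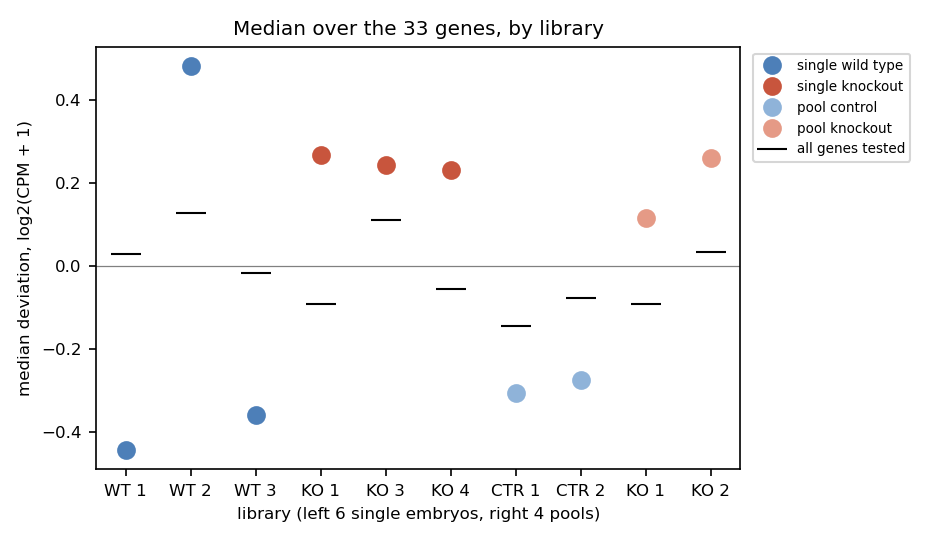
The vertical axis gives, for each of the 10 libraries on the horizontal axis, the median over the 33 p53 pathway genes of log2(CPM + 1) minus that gene's mean over the 10 libraries. Black dashes give the same over all genes tested. Wild-type single embryo 2, at 0.48, sits above the 5 knockout libraries (0.12 to 0.27), and the other 4 control libraries sit between -0.44 and -0.27.

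Trp53 (chromosome 11, 69580348 to 69591873) encodes p53. It had 57.3, 99.5 and 100.1 CPM in wild-type single embryos 1, 2 and 3, and 138.6, 96.7 and 122.7 CPM in knockouts 1, 3 and 4. Wild-type embryo 1 was lowest, and knockout embryo 3 lay below wild-type embryos 2 and 3, so the groups overlapped. The change was within the spread between embryos (edgeR adjusted p = 0.289). In control pools it had 90.7 and 83.5 CPM, and in knockout pools 105.1 and 80.5 CPM. The knockout pools lay on either side of the controls (adjusted p = 0.997).

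Mdm2 (chromosome 10, 117688875 to 117710758), whose product marks p53 for degradation, is itself a p53 target. Wild-type single embryos had 86.5, 144.5 and 54.5 CPM, and in knockouts 117.5, 124.5 and 98.6 CPM. Wild-type embryo 2 had the highest level of all 6, and the other wild types lay below each knockout. The log2 change was 0.31 (SE 0.31, edgeR adjusted p = 0.602). Its pools did not overlap, with 81.0 and 89.8 CPM in controls and 127.7 and 147.9 CPM in knockouts. That log2 change was 0.60 (SE 0.16), with an unadjusted edgeR p of 0.00415 and an adjusted p of 0.549.

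Ccng1 (chromosome 11, 40748552 to 40755309) encodes cyclin G1, which recruits a phosphatase to MDM2. Its promoter holds one of the closest matches to the element shown above. It had 175.9, 445.4 and 201.3 CPM in wild-type single embryos and 513.6, 402.4 and 455.8 CPM in knockouts, a difference in log2 of 0.80 (SE 0.31, edgeR adjusted p = 0.16, DESeq2 adjusted p = 0.0341). Again wild-type embryo 2 lay among the knockouts, and the other wild types were lower than all of them. Control pools had 235.6 and 214.2 CPM and knockout pools 310.7 and 357.2 CPM, with no overlap (log2 change 0.48, SE 0.17, edgeR adjusted p = 0.667, DESeq2 adjusted p = 0.5).

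Among the 10 genes of cell cycle arrest and antiproliferation, 9 had a log2 change above 0 in single embryos and 9 in pools, with medians of 0.51 and 0.65. Of all genes, 48.3% were above 0 in single embryos and 51.3% in pools. None of the 10 passed 5% by edgeR in either set, against 4.37% of all genes in single embryos and 0% in pools.

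Cdkn1a (chromosome 17, 29090979 to 29100722) encodes p21, the inhibitor of cyclin-dependent kinases through which p53 arrests the cell cycle. It had 95.8, 211.4 and 168.6 CPM in wild-type single embryos and 283.3, 240.9 and 268.8 CPM in knockouts. Each knockout embryo was above each wild type, wild-type embryo 2 included. Means were 158.6 ± 58.4 and 264.3 ± 21.5 CPM (SD, n = 3), a difference in log2 of 0.79 (SE 0.27, edgeR adjusted p = 0.115, DESeq2 adjusted p = 0.0225). In the pools it had 175.5 and 164.8 CPM in controls and 241.7 and 274.9 CPM in knockouts, again without overlap (log2 change 0.51, SE 0.16, edgeR adjusted p = 0.621, DESeq2 adjusted p = 0.39).

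Btg2 (chromosome 1, 134074865 to 134079155), an antiproliferative regulator of messenger RNA decay, had the smallest p of the 33 genes in the pools. It had 55.3 and 54.2 CPM in control pools against 117.8 and 157.4 CPM in knockout pools, a difference in log2 of 1.23 (SE 0.18). The edgeR p was 3.36e-05 unadjusted and 0.182 adjusted, and DESeq2 gave an adjusted p of 6.35e-06. In single embryos the wild types ranged widely, with 48.4, 129.5 and 17.9 CPM against 116.5, 79.3 and 109.1 CPM in knockouts (log2 change 0.72, SE 0.53, edgeR adjusted p = 0.466, DESeq2 adjusted p = 0.503). Wild-type embryo 2 exceeded every knockout, so the groups overlapped.

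Plk2 encodes a stress-responsive Polo-like kinase. It had 22.7 and 23.6 CPM in control pools and 45.6 and 45.8 CPM in knockout pools (log2 change 0.89, SE 0.18, edgeR adjusted p = 0.336, DESeq2 adjusted p = 0.0119). Its wild-type single embryos spanned 0.633 to 63.9 CPM, wider than the 19.7 to 57.8 CPM of the knockouts. Zmat3, an RNA-binding protein gene, had 11.7 and 16.1 CPM in control pools and 25.9 and 35.5 CPM in knockout pools (log2 change 1.05, SE 0.22, edgeR adjusted p = 0.336, DESeq2 adjusted p = 0.0114). Trp53inp1, which encodes a nuclear cofactor of p53, had 84.5 and 82.5 CPM in control pools and 133.9 and 177.3 CPM in knockout pools (log2 change 0.80, SE 0.17, edgeR adjusted p = 0.348, DESeq2 adjusted p = 0.0192). These 3 genes overlapped between genotypes in single embryos, with DESeq2 adjusted p values of 0.787, 0.476 and 0.558 there. The remaining arrest genes did not pass an unadjusted p under 0.05 in the pools, with log2 changes of 0.79 (SE 0.49) for Gadd45a, 0.51 (SE 0.26) for the ubiquitin ligase gene Fbxw7, 0.11 (SE 0.17) for the spindle gene Ckap2 and 0.02 (SE 0.18) for Gtse1. Plk3, a relative of Plk2, lay in opposite directions in the sets, with 12.7 and 9.31 CPM in control pools and 8.70 and 6.37 CPM in knockout pools (log2 change -0.63, SE 0.28, edgeR adjusted p = 0.753). In single embryos it had 12.1, 17.1 and 11.7 CPM in wild types and 3.61, 27.3 and 34.9 CPM in knockouts, with knockout embryo 1 lowest of the 6 (log2 change 0.71, SE 0.61, edgeR adjusted p = 0.542). The difference between the sets, the pool change minus the single-embryo change, was -1.37 (SE 0.89) and did not pass (edgeR adjusted p = 0.51).

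**Figure D2:**
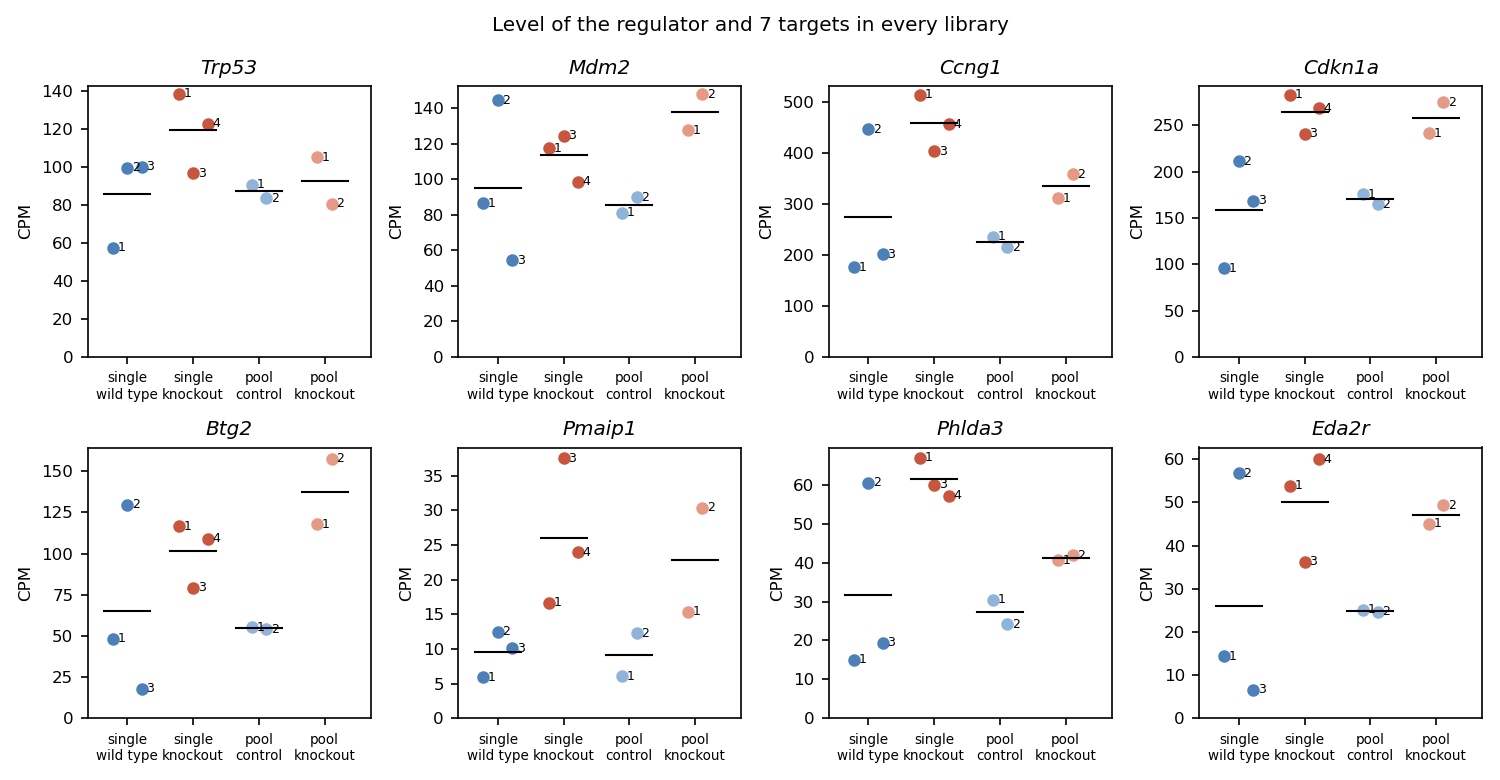
Each panel gives the CPM (vertical axis, from 0) of 1 gene in each of the 10 libraries by group, with replicate numbers beside the points and group means as lines, for Trp53, Mdm2, Ccng1, Cdkn1a, Btg2, Pmaip1, Phlda3 and Eda2r. For Cdkn1a and Pmaip1 each knockout point is above each control point of its set, while for Btg2 wild-type single embryo 2 (129.5 CPM) is above its 3 knockouts (79.3 to 116.5 CPM).

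Among the 12 apoptosis genes, the log2 change was above 0 for 6 of the 11 tested in single embryos (median 0.10) and for 12 of 12 in the pools (median 0.47). The shares of all genes were 48.3% and 51.3%, so the single-embryo count was near that of all genes. None of the apoptosis genes passed 5% by edgeR, against 4.37% of all genes in single embryos and 0% in pools.

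Pmaip1 (chromosome 18, 66458604 to 66465558) encodes NOXA, a BH3-only protein that neutralises MCL1. It had 5.93, 12.5 and 10.1 CPM in wild-type single embryos and 16.7, 37.5 and 24.0 CPM in knockouts. The group means were 9.51 ± 3.32 and 26.1 ± 10.6 CPM (SD, n = 3), without overlap. Its log2 change of 1.47 (SE 0.41) was the highest of the 32 genes tested there, with an edgeR adjusted p of 0.0646 and a DESeq2 adjusted p of 0.00477. Control pools had 6.06 and 12.3 CPM and knockout pools 15.4 and 30.4 CPM, also without overlap (log2 change 1.22, SE 0.35, edgeR adjusted p = 0.557, DESeq2 adjusted p = 0.0699).

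Bbc3 (chromosome 7, 16308398 to 16318334) encodes PUMA, the other BH3-only target. In single embryos it had 6.001, 20.3 and 9.83 CPM in wild types and 15.3, 13.2 and 8.74 CPM in knockouts (log2 change 0.10, SE 0.49, edgeR adjusted p = 0.931). Wild-type embryo 2 was highest of the 6. In the pools it had 4.59 and 7.92 CPM in controls and 8.38 and 14.4 CPM in knockouts, with no overlap by a margin smaller than the gap within either genotype (log2 change 0.77, SE 0.32, edgeR adjusted p = 0.721).

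Bax (chromosome 7, 45461695 to 45466903), whose product opens the outer mitochondrial membrane, was near level in all 4 groups. It had 207.5, 260.7 and 269.4 CPM in wild-type and 311.2, 280.9 and 263.6 CPM in knockout single embryos (log2 change 0.26, SE 0.19, edgeR adjusted p = 0.465). In the pools it had 249.6 and 220.8 CPM in controls and 251.8 and 256.9 CPM in knockouts (log2 change 0.02, SE 0.17, edgeR adjusted p = 0.994). Its promoter held no match to the element under the rule above.

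Aen (chromosome 7, 78895927 to 78911209) encodes a nuclease that degrades DNA during apoptosis. It had 16.05, 47.5 and 27.5 CPM in wild-type single embryos and 94.1, 40.1 and 65.6 CPM in knockouts. Only knockout embryo 3 fell inside the wild-type range (log2 change 1.21, SE 0.43, edgeR adjusted p = 0.127, DESeq2 adjusted p = 0.0171). The pools overlapped, with 26.6 and 17.5 CPM in controls and 34.2 and 22.02 CPM in knockouts (log2 change 0.27, SE 0.29, edgeR adjusted p = 0.909, DESeq2 adjusted p = 0.983). Whether the changes of Aen differ between sets was tested directly, and the difference of -0.96 (SE 0.65) did not pass (edgeR adjusted p = 0.525).

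Phlda3, an inhibitor of the survival kinase AKT, had 15.1, 60.6 and 19.4 CPM in wild-type single embryos and 67.0, 60.01 and 57.2 CPM in knockouts. Wild-type embryo 2 lay within the knockout range, and the other wild types lay below it (log2 change 1.02, SE 0.45, edgeR adjusted p = 0.209). In the pools Phlda3 had 30.5 and 24.2 CPM in controls and 40.6 and 41.9 CPM in knockouts (log2 change 0.50, SE 0.20, edgeR adjusted p = 0.697).

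Eda2r, Fas, Tnfrsf10b, Perp and Ei24 encode membrane proteins, a grouping made after their values were seen. Eda2r, an X-linked receptor gene of the TNF receptor family, had 14.4, 56.7 and 6.67 CPM in wild-type single embryos and 53.8, 36.2 and 60.04 CPM in knockouts (log2 change 1.03, SE 0.61, edgeR adjusted p = 0.348, DESeq2 adjusted p = 0.387). In pools it had 25.2 and 24.6 CPM in controls and 45.0 and 49.3 CPM in knockouts (log2 change 0.83, SE 0.18, edgeR adjusted p = 0.336, DESeq2 adjusted p = 0.0214). Fas, the death receptor gene, was scarce, with 1.49 and 1.26 CPM in control pools and 4.41 and 7.80 CPM in knockout pools. Those values rest on 64, 60, 220 and 320 counts (log2 change 2.04, SE 0.37, edgeR adjusted p = 0.313, DESeq2 adjusted p = 0.000826). In single embryos Fas did not pass the filter on low counts, with 59, 40 and 0 counts in wild types and 0, 1 and 2 in knockouts, so no change is given for it there. Tnfrsf10b, the gene of the TRAIL death receptor, had the lowest log2 change of the 32 in single embryos, with 34.3, 64.6 and 54.7 CPM in wild types and 24.8, 34.8 and 33.8 CPM in knockouts (log2 change -0.68, SE 0.30, edgeR adjusted p = 0.206). In pools its log2 change was 0.25 (SE 0.20). The desmosomal gene Perp was at -0.41 (SE 0.33) in single embryos and 0.14 (SE 0.18) in pools, and Ei24 of the endoplasmic reticulum at -0.33 (SE 0.36) and 0.44 (SE 0.19), all as log2 changes with groups overlapping in single embryos. Apaf1, the scaffold of the apoptosome, and Pidd1, the scaffold that activates caspase-2, were at -0.11 (SE 0.37) and -0.43 (SE 0.48) in single embryos and at 0.39 (SE 0.20) and 0.76 (SE 0.25) in pools, as log2 changes.

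Of the 5 genes of repair and nucleotide supply, 3 had a log2 change above 0 in single embryos (median 0.16) and 3 in pools (median 0.19). Both counts were near the shares of all genes, 48.3% and 51.3%. Xpc, which recognises damaged DNA, was lower in every knockout than in every wild-type single embryo, with 22.3, 16.8 and 19.4 CPM in wild types and 16.2, 12.1 and 12.1 CPM in knockouts (log2 change -0.48, SE 0.35, edgeR adjusted p = 0.462). That separation rests on CPM by library total and was lost after scaling the libraries by TMM. Its pools overlapped (log2 change -0.02, SE 0.25). The other damage-recognition gene, Ddb2, had log2 changes of 0.58 (SE 0.56) and -0.12 (SE 0.39), the translesion polymerase gene Polk of -0.02 (SE 0.40) and 0.27 (SE 0.20), and the ribonucleotide reductase gene Rrm2b of 0.44 (SE 0.63) and 0.40 (SE 0.27), single embryos first. Rps27l, a ribosomal protein gene with a close paralogue that can share reads, had log2 changes of 0.16 (SE 0.16) and 0.19 (SE 0.16). Ddb2 shares 621 exonic bases (26.7% of its length) with Acp2 on the opposite strand, and Gadd45a shares 238 (19.5%) with E230016M11Rik, so their counts are uncertain where strand was not used.

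Among the 3 metabolic genes, Tigar, a fructose bisphosphatase that lowers glycolytic flux, lay in opposite directions in the sets. It had 224.4, 234.6 and 249.5 CPM in wild-type single embryos and 332.9, 289.7 and 279.7 CPM in knockouts, every knockout being higher (log2 change 0.40, SE 0.18, edgeR adjusted p = 0.229). In the pools it had 356.7 and 319.0 CPM in controls and 315.3 and 262.7 CPM in knockouts, every knockout being lower (log2 change -0.31, SE 0.19, edgeR adjusted p = 0.834). The difference between the sets for Tigar, -0.73 (SE 0.27), did not pass (edgeR adjusted p = 0.264). The stress-induced inhibitor of mTORC1 signalling Sesn2 had log2 changes of 0.52 (SE 0.42) in single embryos and 0.54 (SE 0.24) in pools, and its relative Sesn1 of -0.18 (SE 0.32) and -0.11 (SE 0.22).

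**Figure D3:**
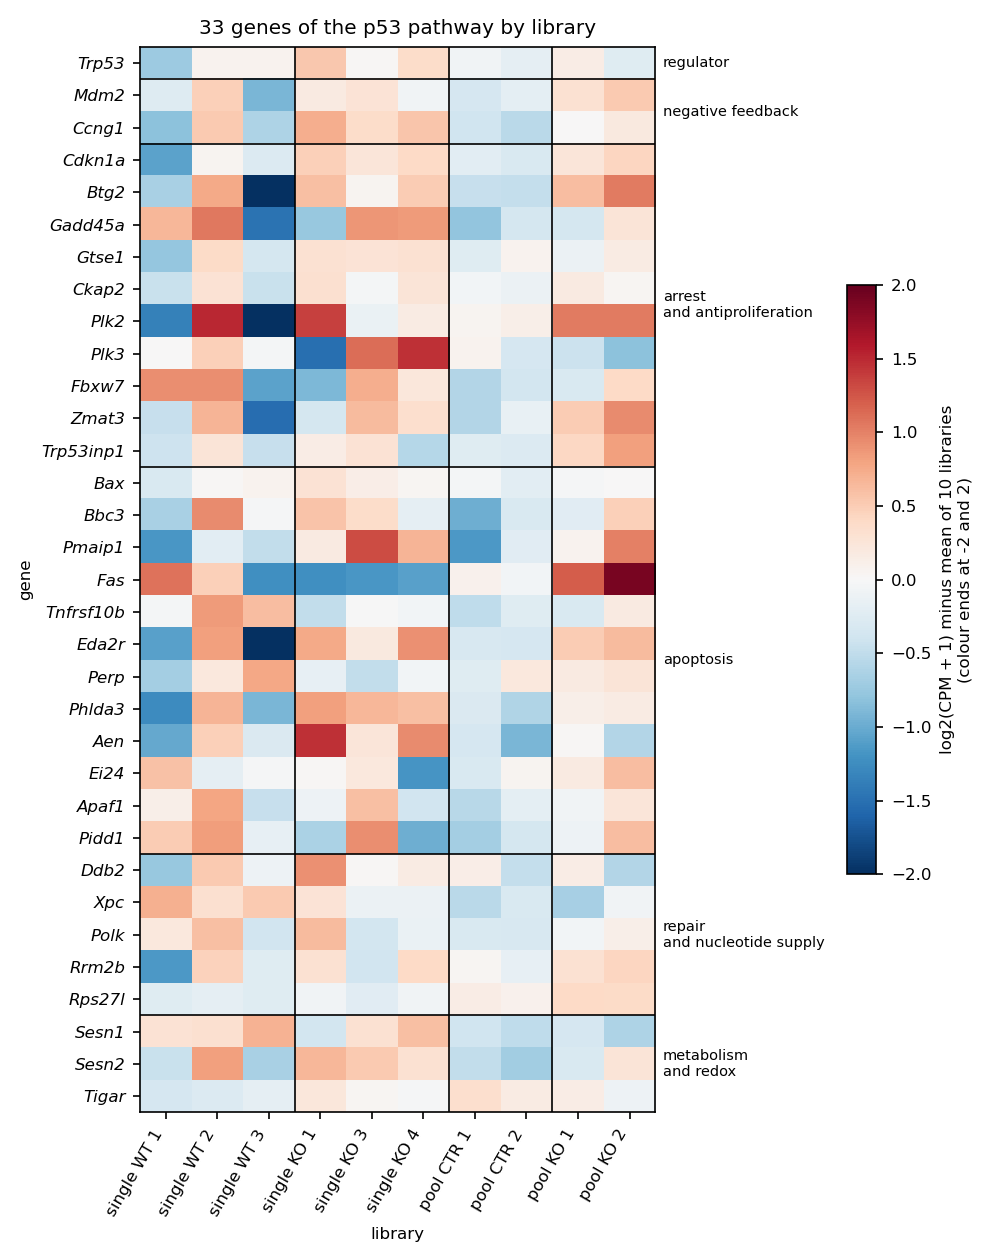
Rows are the 33 genes by role, columns the 10 libraries, and colour gives log2(CPM + 1) minus the gene's mean over the 10 libraries, ending at -2 and 2. Wild-type single embryo 2 resembles the knockout columns for Btg2, Ccng1, Phlda3 and Eda2r, with 129.5, 445.4, 60.6 and 56.7 CPM.

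Counted over all members in single embryos, 0 of 32 passed 5% by edgeR, against 4.37% of all genes (605, of which 161 were higher in knockouts and 444 lower). At an unadjusted p under 0.05, 5 were higher in knockouts (Cdkn1a, Pmaip1, Aen, Ccng1 and Phlda3; 10.4% of all genes) and 1 was lower (Tnfrsf10b; 12.2% of all genes). The number higher was 2 without wild-type embryo 1 (6.93% of all genes), 3 without wild-type embryo 3 (8.80%), 3 without knockout embryo 1 (6.38%), 3 without knockout embryo 4 (6.69%), 6 without knockout embryo 3 (12.1%) and 13 without wild-type embryo 2 (11.3%). Groups did not overlap for 3 higher genes (Cdkn1a, Pmaip1 and Tigar; 12.6% of all genes) and for 1 lower gene (Xpc; 15.3% of all genes). Both shares without overlap were below those of all genes. The log2 change was above 0 for 23 of 32, against 48.3% of all genes. DESeq2 called 4 of 31 members higher at 5% (Cdkn1a, Pmaip1, Aen and Ccng1; 9.20% of all genes).

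These counts differed without wild-type embryo 2, which was singled out after its values were seen. It was the highest of the 3 wild types for 24 of the 32 genes, against 37.9% of all genes. Its level was at or above the lowest knockout for 28 of the 32, against 76.8% of all genes. For wild-type embryo 1 this held for 11 of the 32 (67.6% of all genes) and for wild-type embryo 3 for 12 (69.1% of all genes). Its Jarid2 level, 686.0 CPM, was between those of the other wild types. Without it, 3 of the 32 genes were higher in knockouts at 5% by edgeR, against 0.892% of all genes (3.54% in either direction). These were Ccng1 (log2 change 1.31, adjusted p = 0.0257), Phlda3 (1.86, 0.0257) and Eda2r (2.31, 0.0282). Groups then did not overlap for 16 higher genes, 50% of the members against 20.1% of all genes, and the median log2 change was 0.70 against 0.00 over all genes. Leaving out knockout embryo 3 gave 1 call (Aen), against 9.05% of all genes. Leaving out any other single embryo gave 0, against 0.278% of all genes without wild-type embryo 1, 0.00675% without wild-type embryo 3, 0.45% without knockout embryo 1 and 0.00678% without knockout embryo 4. Without wild-type embryo 3, or without knockout embryo 4, edgeR called 1 gene in the whole table, so at most 1 of the single-embryo calls given here for Jarid2 and the gene lists holds without either.

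In the pools, 0 of 33 members passed 5% by edgeR, and so did 0% of all 16259 genes, of which 1073 had an unadjusted p under 0.05. At that unadjusted p, 15 of the 33 were higher in knockouts (4.26% of all genes) and 0 were lower (2.34% of all genes). With all 10 libraries in 1 fit, in which both sets share 1 estimate of the spread, 2 of the 33 were higher at that p, against 0.246% of all genes. The 15 were Btg2, Fas, Plk2, Cdkn1a, Pmaip1, Mdm2, Ccng1, Bbc3, Trp53inp1, Sesn2, Zmat3, Phlda3, Eda2r, Ei24 and Pidd1. In CPM by library total, 22 were higher in both knockout pools than in both controls (24.3% of all genes) and 2, Plk3 and Tigar, were lower in both (11.1% of all genes). After TMM scaling, a count added after the data were seen, these were 20 higher (19.1% of all genes) and 2 lower (16.5% of all genes). The log2 change was above 0 for 28 of 33, against 51.3% of all genes. DESeq2 called 6 members higher at 5% (Btg2, Fas, Plk2, Trp53inp1, Zmat3 and Eda2r), against 0.5% of all genes, and limma-voom called 0. Without knockout pool 1 edgeR called 9 members (2.21% of all genes), without control pool 2 it called 4 (0.363%), without control pool 1 it called 2 (0.29%) and without knockout pool 2 also 2 (0.146%). Such fits leave 1 library in a genotype, assumed to vary like the other. Knockout pool 2 was above knockout pool 1 for 25 of the 33 members, against 63.6% of all genes.

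**Figure D4:**
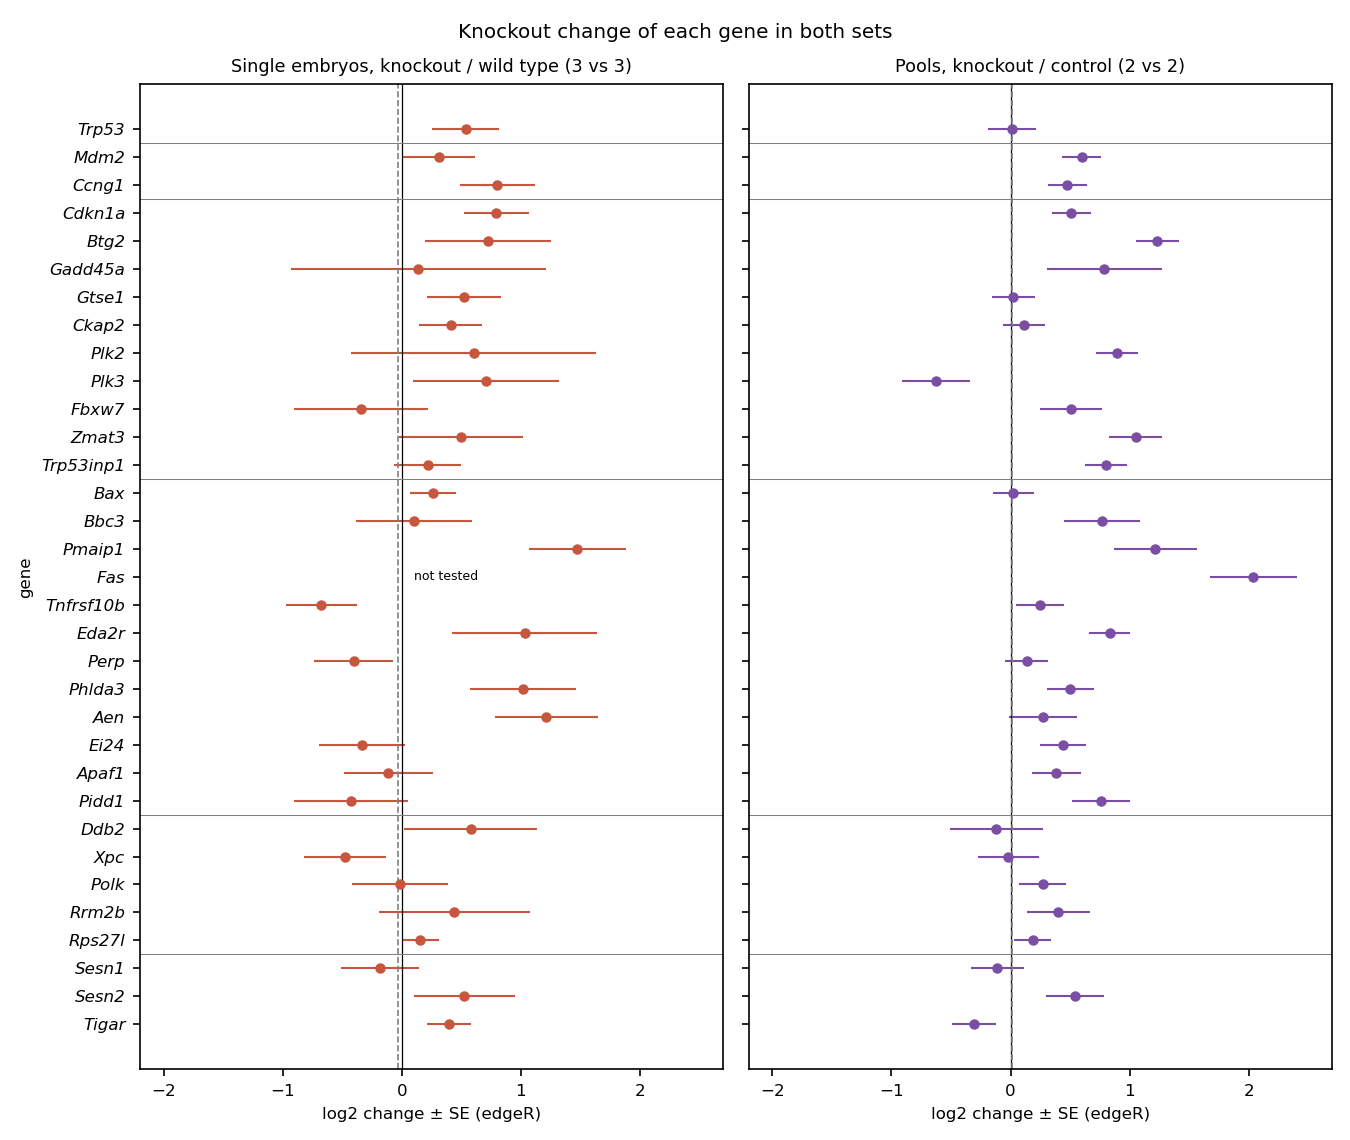
Points give the log2 change of each of the 33 genes, knockout against control, with bars of 1 SE, in single embryos and in pools. The dashed lines are the medians over all genes tested (-0.03 and 0.01). In pools 28 of 33 points lie above 0, with narrower bars than in single embryos for Btg2 (0.18 against 0.53) and Eda2r (0.18 against 0.61).

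Set beside each other, the 2 sets shared a log2 change above 0 for 20 of 32 genes, against 20.6% of all genes tested in both. Knockouts were higher without overlap in both sets for 2 (Cdkn1a and Pmaip1), against 2.42% of all genes. The difference between the sets' changes, coded as the pool change minus the single-embryo change, passed 5% by edgeR for 0 of the 33 members and for 0.0063% of all genes (1 gene). At an unadjusted p under 0.05 it was present for 3 of the 33, against 14.6% of all genes. These were Fas (7.08, adjusted p = 0.235), Tnfrsf10b (0.90, adjusted p = 0.333) and Tigar (-0.73, adjusted p = 0.264). The value of Fas rests on 3 counts in the knockout single embryos together. The average of both sets' changes passed 5% for 0 of 33 members and 0.252% of all genes (40 genes). With an unadjusted p under 0.05, 10 were higher in knockouts (Btg2, Cdkn1a, Pmaip1, Aen, Mdm2, Ccng1, Trp53inp1, Zmat3, Phlda3 and Eda2r), against 5.06% of all genes. Pmaip1 had an average log2 change of 1.36 (SE 0.32, edgeR adjusted p = 0.0922) and Cdkn1a of 0.67 (SE 0.19, adjusted p = 0.17).

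Changes can also be set beside the promoter element. The median log2 change was 0.47 for the 10 genes with a match and 0.29 for the 14 tested without one in single embryos. In pools it was 0.15 for the 10 with a match and 0.54 for the 15 without. The difference between these medians was not tested.

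Levels can be compared between genes only per length, here as CPM per kilobase of GENCODE M21 exons. Rps27l was highest in every group, from 2016 ± 44.3 (SD, n = 3) in wild-type single embryos to 3079 ± 2.26 (SD, n = 2) in knockout pools. Bax followed, at 271.3 to 329.0 as group means. Ccng1, Perp, Tigar and Cdkn1a came next with group means of 58.3 to 130.2 CPM per kilobase, and their order changed between groups. Trp53 had group means of 45.8 to 63.9 CPM per kilobase. Rrm2b, with group means of 1.03 to 1.59, was at the low end. Fas was also low in single embryos and control pools, with group means of 0.030 to 1.16. In knockout pools Fas had 3.40, above Gadd45a (1.69) and Rrm2b (1.59).

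Genes around the pathway come from lists chosen by function, with earlier results of these data known. For comparison, edgeR called 4.37% of all genes in single embryos and 0% in pools. At an unadjusted p under 0.05, 10.4% of all genes were higher and 12.2% lower in single embryos. In pools these shares were 4.26% and 2.34%. Of the p53 regulators and partners, 1 of 21 tested was called higher and 0 lower in single embryos, against 0 of 22 in either direction in pools, where 1 was higher at an unadjusted p under 0.05. At that p, single embryos had 2 higher and 3 lower. The call was Rpl5, a ribosomal protein that can bind MDM2, whose reads can be shared with processed pseudogenes, with 512.5, 515.5 and 511.8 CPM in wild types and 812.1, 803.6 and 738.5 CPM in knockouts (log2 change 0.66, SE 0.16, edgeR adjusted p = 0.0418). The acetyltransferase gene Ep300 (log2 change -0.95, SE 0.28, edgeR adjusted p = 0.0783) and Npm1 (0.49, SE 0.16, adjusted p = 0.102) followed. In the pools the smallest p values of this list belonged to the p53 relative Trp73, with 2 and 0 counts in controls and 44 and 77 in knockouts, the phosphatase gene Ppm1d (log2 change 0.36, SE 0.25) and the deacetylase gene Sirt1 (0.25, SE 0.17). The adjusted p of Trp73 was 0.336 by edgeR, and in single embryos it had 0, 47 and 0 counts in wild types and 21, 0 and 7 in knockouts.

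Of 27 further p53 targets tested in single embryos, 0 were called higher and 1 lower, and 1 was higher and 5 lower without adjustment (p under 0.05). The call was Steap3, an iron reductase gene, with 138.8, 84.0 and 86.7 CPM in wild types and 43.1, 49.3 and 22.9 CPM in knockouts (log2 change -1.38, SE 0.32, edgeR adjusted p = 0.0376), followed by the autophagy gene Dram1 (-1.61, SE 0.42, adjusted p = 0.0537) and Notch1 (-1.47, SE 0.50, adjusted p = 0.112). In pools 0 of 28 passed, and at an unadjusted p under 0.05 there were 7 higher and 3 lower. The smallest p values there were those of Ptpn14 (log2 change 1.99, SE 0.39), Ak1 (1.11, SE 0.35) and Cd82 (-0.89, SE 0.32). The median of this list was -0.04 in single embryos and 0.21 in pools, below those of the 33 genes.

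For mitochondrial apoptosis outside the 33 genes, 0 of 16 passed in either set by edgeR, while an unadjusted p under 0.05 was reached by 3 higher and 1 lower in single embryos and by 2 higher in pools. The genes with the smallest p were Diablo (log2 change 0.88, SE 0.24), Bid (1.03, SE 0.38) and Xiap (-0.73, SE 0.30) in single embryos, and Bcl2l11 (0.57, SE 0.22), Bik (1.55, SE 0.61) and Casp9 (-0.50, SE 0.25) in pools. Of 17 cell cycle genes known to be repressed through p53 and p21, 1 was called lower in single embryos, where an unadjusted p under 0.05 was reached by 4 higher and 1 lower. The call was the proliferation marker Mki67, with 196.1, 155.4 and 183.4 CPM in wild types and 61.7, 97.1 and 91.0 CPM in knockouts (log2 change -1.06, SE 0.22, edgeR adjusted p = 0.0271), while Ccnb1 and Ccna2 had log2 changes of 1.009 (SE 0.37) and 0.71 (SE 0.27). In pools none of the 17 passed edgeR, adjusted or at an unadjusted p under 0.05 (0 genes), and Ccnb2, Cks2 and Cdc25c had log2 changes of -0.37 (SE 0.17), -0.28 (SE 0.18) and -0.27 (SE 0.18). The list's median was 0.26 in single embryos and -0.16 in pools.

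Markers of the 2-cell stage summed to 0.61 to 1.03 CPM in wild-type and 0.44 to 24.7 CPM in knockout single embryos, and to 4.94 to 9.78 CPM in control and 9.09 to 16.6 CPM in knockout pools. All 6 were detected in at least 1 library, and their summed levels overlapped between genotypes in both sets. Oocyte markers, all 8 detected, summed to 47.8 to 163.9 CPM in wild-type and 36.7 to 98.3 CPM in knockout single embryos, and to 61.5 to 74.4 and 62.9 to 73.2 CPM in control and knockout pools. The 4 sperm markers summed to at most 3.07 CPM and the 4 blood markers to at most 0.88 CPM, with Hbb-bs and Ptprc at 0 everywhere. Their part in the changes of the p53 genes was not tested.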

How the data were processed

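The deposited table holds whole-number read counts per gene for 10 libraries, which the authors did not normalize. Amplified cDNA came from the SMART-Seq v4 kit, per the labels' protocols, and reads were single-end. Per the submitters' processing notes, mm10, STAR 2.7.6a, RSEM 1.3.1 and fastp 0.21.0 were used. The counting tool, its annotation, its use of strand and its treatment of multiply mapped reads: not given in the sources used here. There were no molecular identifiers, so a count is a read, not a molecule.

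Tests were run with edgeR 4.0.16 in R 4.3.3: filterByExpr, TMM scaling (factors of 0.902 to 1.11 over the 10 libraries), the two-sided quasi-likelihood F test, and Benjamini-Hochberg adjustment over all genes tested at 5%. Each set had its own fit, and the difference and the average of the changes came from a fit of all 10 libraries with set as a term. Fitted changes carry a prior count of 0.125. The SE of an edgeR change is its absolute value divided by the square root of the test's F value, not a separately fitted error. The scripts were tested on simulated data. CPM used library totals, with 1 added before log2. Alternatives were DESeq2 1.42.0, limma-voom (limma 3.58.1), other scalings and filters, 1 fit of all libraries, a block for the replicate number, and each library left out in turn.

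The 33 genes, the gene lists and the roles were chosen with earlier results of these data known. Values in every library of the set are given for genes named past 5% and for Trp53, Mdm2, Cdkn1a, Pmaip1, Bax, Bbc3, Ccng1 and Aen. Other genes given that way were chosen after their values were seen. From each gene list the 3 with the smallest p per set are named. All 33 genes matched the RefSeq table (GRCm38.p6) used for coordinates. Of the regulator list, Cop1 was not matched by name.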

Additional observations from a re-analysis of the deposited data

How the results depend on the processing

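Calls at 5% depended on the tool and on the filter. In single embryos edgeR called 605 genes and 0 of the p53 pathway genes, against 1957 and 4 by DESeq2, 1715 and 6 without a filter on low counts, 1243 and 1 among genes averaging 10 CPM or more, and 1667 and 3 with all 10 libraries in 1 fit (Cdkn1a and Pmaip1 higher, Fas lower). Limma-voom gave 757 genes, DESeq2 size factors 597 and library totals 668, each with 0 p53 pathway genes. With 1 single embryo left out, 1 to 1316 genes and 0 to 3 p53 pathway genes were called, and their median log2 change ran from 0.17 to 0.70. In pools edgeR called 0 genes, against 71 by DESeq2 with 6 p53 pathway genes, 1 by limma-voom, and 170 without a filter with 7 p53 pathway genes. With 1 pool left out, 25 to 379 genes and 2 to 9 p53 pathway genes were called, with medians from 0.31 to 0.48. The pool median was 0.53 without scaling factors and 0.52 among genes averaging 10 CPM or more. For the difference between sets, DESeq2 called 544 genes and no filter 548, with 1 p53 pathway gene (Fas) under the latter; with 1 library left out 0 to 2 genes and 0 p53 pathway genes were called, and the median ran from -0.31 to 0.26. For the average, 484 genes and 2 p53 pathway genes were called by DESeq2, 141 by limma-voom, 579 and 8 without a filter, 141 and 1 among genes averaging 10 CPM or more, and 0 to 130 and 0 to 4 with 1 library left out. Without scaling factors the median difference between sets over all genes was 0.21 in place of 0.05. The cause of these shifts was not tested.

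The labels do not say that the replicate numbers pair the libraries. In deviations from group means, same-numbered single embryos correlated at -0.01 and -0.08. Same-numbered pools correlated at 0.32, a single value with 2 pools a group, which leaves pairing undecided. With the replicate number as a block, 187 genes and 4 p53 pathway genes were called in single embryos, and 39 genes and 6 p53 pathway genes in pools. Only numbers 1 and 3 occur in both genotypes of single embryos. Wild-type embryo 2 and knockout embryo 4 thus did not inform the genotype change in the single-embryo block fit.

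The signs of some log2 changes turned, among them those of Plk3 and Plk2 in single embryos, which were 0.71 and 0.60 in the fit reported. In single embryos Polk was 0.035 by DESeq2 and with DESeq2 size factors, and 0.012 with all libraries in 1 fit. The block, not informed by wild-type embryo 2 and knockout embryo 4, gave 0.24 for Polk, -0.22 for Plk3, 0.013 for Fbxw7 and 0.45 for Apaf1. In pools Trp53 was -0.0061 by DESeq2 and with its size factors, -0.0069 by limma-voom and -0.0078 with the block, Gtse1 was -0.00066 by DESeq2 and -0.00065 with its size factors, and Xpc was 0.078 without scaling factors. With 1 library left out, log2 changes took both signs in single embryos for Apaf1 (-0.38 to 0.26), Bbc3 (-0.22 to 0.67), Gadd45a (-0.42 to 0.77), Perp (-0.71 to 0.012), Plk2 (-0.088 to 3.09), Polk (-0.45 to 0.23) and Sesn1 (-0.45 to 0.024); in pools for Aen (-0.17 to 0.64), Bax (-0.090 to 0.14), Ckap2 (-0.027 to 0.24), Ddb2 (-0.72 to 0.32), Gtse1 (-0.10 to 0.15), Perp (-0.051 to 0.34), Sesn1 (-0.35 to 0.088), Trp53 (-0.27 to 0.25) and Xpc (-0.30 to 0.21); for the difference between sets for Mdm2 (-0.17 to 0.51) and Pmaip1 (-0.77 to 0.27).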
